A study of Homo sapiens with 4 samples.

Results

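The 10 genes described here encode serine/arginine-rich splicing factors of the SR family (SRSF1, SRSF2, SRSF3, SRSF4, SRSF5, SRSF6, SRSF7 and SRSF11) and the 2 SR-like transformer-2 proteins (TRA2A and TRA2B). They were taken by symbol from the 56865 genes to which the quantified transcripts could be assigned, and all 10 were found and passed the filter on low reads. The RNA came from MDA-MB-468, an established human line of triple-negative breast cancer, at passage 12, seeded in duplicate dishes. One group received 5 µM MS1943 for 3 days (n = 2) and the other received DMSO (n = 2), with no separate time given for DMSO. The series title calls MS1943 an EZH2 degrader; EZH2 is the methyltransferase subunit of Polycomb repressive complex PRC2. The study asked how the compound changes the transcriptome. The sources used here do not say whether the duplicates are independent cultures beyond separate dishes, and the p-values cover only the spread between the libraries, which may be technical.

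SR proteins bind exonic enhancers through RNA recognition motifs and recruit the spliceosome through arginine/serine-rich tails. Most of their genes carry a "poison" exon or a spliceable 3′ region: including or splicing it leaves a stop codon upstream of a splice junction, and such transcripts are substrates of nonsense-mediated decay (NMD), the pathway that degrades messages with premature stops. SR proteins promote the poison splicing of their own and of each other's transcripts, so the NMD isoforms are known as part of a feedback circuit that sets protein level.

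GENCODE release 29 lists 112 transcripts for the 10 genes, and all 112 had the same length in the deposited files. Of these, 39 are annotated as protein coding, 21 as NMD targets, 34 as retained-intron transcripts and 18 as other types. In the 21 NMD-annotated transcripts the stop codon lay 57 to 1138 bases upstream of the last splice junction.

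Cassette exons that interrupt a coding intron and overlap no annotated coding sequence of a protein-coding transcript were found for 7 of the 10 genes, 15 exons in all. The sequences below are the most abundant such exon of 5 genes, from its first base to the end of the first in-frame stop, which is the stretch that makes the exon poisonous. The TRA2B exon is shown with them, although it was admitted by a wider rule chosen after seeing the data, because a short annotated coding transcript ends inside it. Letters are the RNA strand, 5′ to 3′, from GENCODE 29 transcripts on hg38, and capitals mark the stop codon read in the frame of the upstream coding exon.
SRSF3 (456-base exon, chr6:36599821-36600276, + strand): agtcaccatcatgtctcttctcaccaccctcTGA
SRSF4 (228-base exon, chr1:29159864-29160091, - strand): atttaacaaagacctcaatgtttTAA
SRSF6 (268-base exon, chr20:43459153-43459420, + strand): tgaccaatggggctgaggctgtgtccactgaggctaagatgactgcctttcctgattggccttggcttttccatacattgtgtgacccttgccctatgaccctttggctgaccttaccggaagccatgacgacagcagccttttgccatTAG
SRSF7 (449-base exon, chr2:38748898-38749346, - strand): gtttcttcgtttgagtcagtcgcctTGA
TRA2A (312-base exon, chr7:23522121-23522432, - strand): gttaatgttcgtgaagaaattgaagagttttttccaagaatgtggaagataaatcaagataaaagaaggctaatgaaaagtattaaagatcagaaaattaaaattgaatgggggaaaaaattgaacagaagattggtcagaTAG
TRA2B (276-base exon, chr3:185931577-185931852, - strand): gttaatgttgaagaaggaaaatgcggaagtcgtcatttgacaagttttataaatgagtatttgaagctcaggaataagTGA

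In SRSF3, SRSF4 and SRSF7 the stop fell within the first 34, 26 and 28 bases of the exon. In TRA2B, SRSF6 and TRA2A it ended at base 81, 152 and 144. The leading SRSF11 cassette (33 bases, chr1:70247117-70247149, + strand), not printed above, also holds an in-frame stop, which ended at base 16. Across the leading cassettes of 8 genes, the longest run of bases shared by 2 genes was 20 bases, tgaggctaagatgactgcct, starting at base 41 of the SRSF4 exon and base 29 of the SRSF6 exon. The next longest shared run, between SRSF4 and TRA2A, was 13 bases. In SRSF2 the leading cassette (104 bases, chr17:76735772-76735875, - strand) lies beyond the normal stop codon, so it adds a splice junction downstream of that stop, and no reading frame was followed into it.

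The libraries held 64720699 and 71378893 estimated reads in the DMSO pair and 69878745 and 47564377 in the MS1943 pair. The response was broad: edgeR's quasi-likelihood test called 11488 of 19358 genes (59.3%) at an adjusted p under 0.05, 5799 higher and 5689 lower. With total reads as the scale the split was 4619 higher and 6973 lower, since that scaling moved the median gene to a log2 fold change of -0.12. Mean TPM, a level scaled by transcript length, placed the median gene at -0.13, so a TPM level about that much lower with MS1943 is the shift of the scale. Summed CPM of 11 epithelial and basal markers was 12150 to 12170 with DMSO and 16450 to 17510 with MS1943. The markers did not move together: 5 were called higher, 3 lower (CDH1, KRT8 and KRT19) and 3 were not called. KRT5 averaged 1068 CPM with DMSO and 3888 with MS1943, and KRT8 averaged 1788 and 1135. Summed CPM of 7 leukocyte markers was 149 to 165 with DMSO and 117 to 119 with MS1943. Nearly all of it was CD14 (163 and 147 CPM with DMSO, 86.2 and 87.4 with MS1943) and, with MS1943, CD68, which rose from 1.08 and 0.829 to 32.0 and 29.7 CPM, while PTPRC, CD3E and CD4 were each at or under 0.152 CPM. Summed CPM was 24.9 to 25.6 and 29.7 to 33.6 for 7 fibroblast markers, most of it COL1A1, and 6.07 to 6.22 and 2.53 to 2.76 for 5 endothelial markers. No marker was at 0 in all 4 libraries, and their part in the results below was not tested.

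At the level of whole genes, 6 of the 10 fell with MS1943, 1 rose and 3 did not pass the test. The share of all tested genes called lower was 29.4%, and 30.0% were called higher. The median log2 fold change of the 10 was -0.34, beside -0.01 over all tested genes. In bulk RNA, fewer cells with a transcript and less of it per cell cannot be told apart.

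The 4 deepest falls were in SRSF1, SRSF2, SRSF3 and SRSF7. SRSF1, the founding SR protein and a known oncogene product in breast tissue, stood at 281.4 and 281.7 TPM with DMSO and at 166.0 and 176.6 TPM with MS1943. Its log2 fold change was -0.66 ± 0.06 (SE; edgeR adjusted p = 8.6e-09). SRSF2, which binds exonic enhancers and is recurrently mutated in myeloid neoplasms, had 393.0 and 427.4 TPM with DMSO and 226.0 and 234.6 TPM with MS1943 (log2 fold change -0.73 ± 0.06, edgeR adjusted p = 7.9e-09). In both genes the MS1943 libraries lay well below the DMSO libraries.

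SRSF3 and SRSF7 are the small SR proteins that also serve as adaptors for mRNA export. SRSF3 had 507.0 and 483.6 TPM with DMSO and 311.7 and 304.8 TPM with MS1943 (log2 fold change -0.58 ± 0.06, edgeR adjusted p = 1.2e-07). SRSF7 had 247.7 and 243.5 TPM with DMSO and 138.3 and 136.4 TPM with MS1943 (log2 fold change -0.62 ± 0.06, edgeR adjusted p = 1.1e-08). The groups did not overlap in either gene.

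The TRA2 proteins, which bind GA-rich enhancers, fell less on this scale. TRA2B went from 241.5 and 251.5 TPM to 185.9 and 196.5 TPM (log2 fold change -0.33 ± 0.05, edgeR adjusted p = 3.4e-05). TRA2A had 55.9 and 56.7 TPM with DMSO and 49.6 and 49.5 TPM with MS1943 (log2 fold change -0.35 ± 0.06, edgeR adjusted p = 2.7e-05). The TRA2A call did not hold when reads were corrected for the mean length of the transcripts present: the log2 fold change was then -0.08, with an edgeR adjusted p of 0.337.

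SRSF4, SRSF5 and SRSF6 did not pass the test, with log2 fold changes of -0.02 ± 0.06, -0.08 ± 0.05 and -0.04 ± 0.06. SRSF4 and SRSF6 carry long arginine/serine tails, and SRSF5 is close to them in sequence. With total reads as the scale, SRSF5 (log2 fold change -0.20, adjusted p = 0.0040) and SRSF6 (-0.15, adjusted p = 0.0087) were also called lower, and SRSF5 was called lower with transcript lengths corrected (-0.17, adjusted p = 0.0291).

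SRSF11, a factor that interacts with the U2AF complex, was the 1 gene called higher. Its log2 fold change was 0.24 ± 0.06 (edgeR adjusted p = 0.0010). On the TPM scale the groups overlapped, at 173.0 and 189.6 TPM with DMSO and 182.6 and 194.4 TPM with MS1943.

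The whole-gene values mix transcripts annotated as coding with transcripts annotated as decay targets. Not every coding-annotated transcript is a full model: SRSF2-201, SRSF7-210 and SRSF11-204 are among those with an incomplete end in the annotation. TRA2B-202, also counted as coding, has only 117 coding bases. Each gene was therefore split by annotated class. Coding reads were called lower in 8 of the 10 genes, beside 28.4% of all coding class sums tested. NMD-annotated reads were called lower in 0 of the 10, which is near the 7.33% of all NMD class sums tested. In TPM, the NMD level was lower in both MS1943 libraries in SRSF3, SRSF7 and SRSF11. Summed over the 10 genes, coding transcripts had 1595 and 1587 TPM with DMSO and 934 and 982.7 TPM with MS1943. NMD-annotated transcripts summed to 354 and 372 TPM with DMSO and to 365 and 371 TPM with MS1943, overlapping between the groups. The coding share of the family's TPM was 71.0% and 69.3% with DMSO and 59.6% and 61.1% with MS1943. The NMD share was 15.8% and 16.2% with DMSO and 23.3% and 23.1% with MS1943. Over all genes the NMD share was 3.53% and 3.60% with DMSO and 3.93% and 4.06% with MS1943. The coding share over all genes was 83.0% and 82.1% with DMSO and 81.1% and 81.0% with MS1943.

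**Figure D1:**
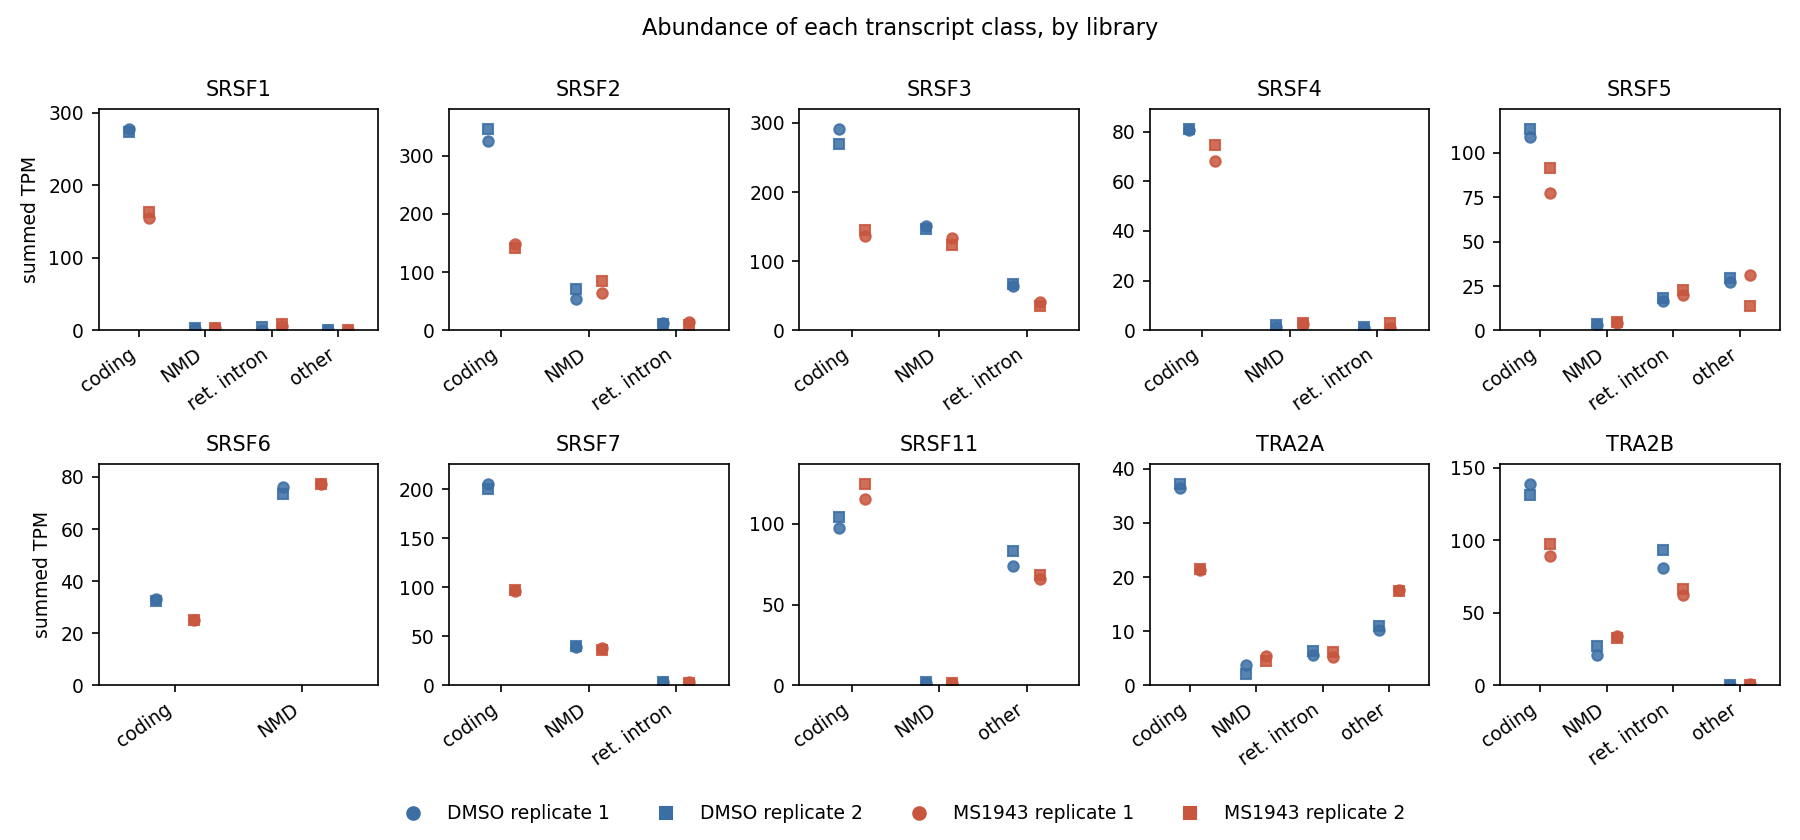
Summed TPM of each transcript class (coding, NMD-annotated, retained intron, other) for each gene, on linear axes that start at 0; each point is 1 library. Coding transcripts of SRSF1, SRSF2, SRSF3 and SRSF7 are separated by group, while the NMD points of SRSF2 overlap between groups.

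Coding reads fell in 8 of the 10 genes by edgeR's test of class sums, rose in SRSF11 and did not pass in SRSF4. Of all coding class sums tested, 28.4% were called lower and 28.1% higher. The falls were deepest in SRSF2 (-1.10 ± 0.06), SRSF7 (-1.0 ± 0.05) and SRSF3 (-0.97 ± 0.07), each further than for the whole gene. SRSF1 (-0.68 ± 0.06), TRA2A (-0.63 ± 0.05) and TRA2B (-0.58 ± 0.07) followed. SRSF5 (-0.27 ± 0.08, adjusted p = 0.0467) and SRSF6 (-0.25 ± 0.05, adjusted p = 0.0111) were the smallest. The SRSF5 call was lost in 4 of the alternatives run, among them without DMSO replicate 1 (adjusted p = 0.127), without DMSO replicate 2 (0.0842) and without MS1943 replicate 1 (0.12). In SRSF11, coding TPM was 97.2 and 104.2 with DMSO and 115.7 and 124.8 with MS1943 (log2 fold change 0.32 ± 0.05, edgeR adjusted p = 0.0047).

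NMD-annotated reads were called higher in 4 of the 10 and lower in 0, beside 22.2% and 7.33% of all NMD class sums tested. The log2 fold change was 0.62 ± 0.11 for TRA2B (edgeR adjusted p = 0.0049), which rose from 20.9 and 26.8 TPM to 33.9 and 32.9 TPM. SRSF1 (0.62 ± 0.19, adjusted p = 0.0471), SRSF5 (0.57 ± 0.14, adjusted p = 0.0210) and SRSF6 (0.18 ± 0.05, adjusted p = 0.0361) were also called, but the number called was 1 with total reads as the scale, 2 by DESeq2, 2 without DMSO replicate 2, 2 without MS1943 replicate 1 and 1 without MS1943 replicate 2. The NMD transcripts of SRSF1 and SRSF5 were scarce, at 2.47 to 3.99 TPM and 3.00 to 4.51 TPM over the 4 libraries. In SRSF3 and SRSF7, whose coding reads fell deeply, the NMD log2 fold changes were 0.10 ± 0.07 and 0.03 ± 0.05 and did not pass. Both turned slightly negative with total reads as the scale (-0.01 and -0.08). In TPM, the NMD level of both genes was lower in both MS1943 libraries. SRSF3 had 151.3 and 147.1 TPM with DMSO and 134.3 and 123.7 TPM with MS1943. SRSF7 had 39.3 and 40.4 TPM with DMSO and 38.3 and 35.95 TPM with MS1943.

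**Figure D2:**
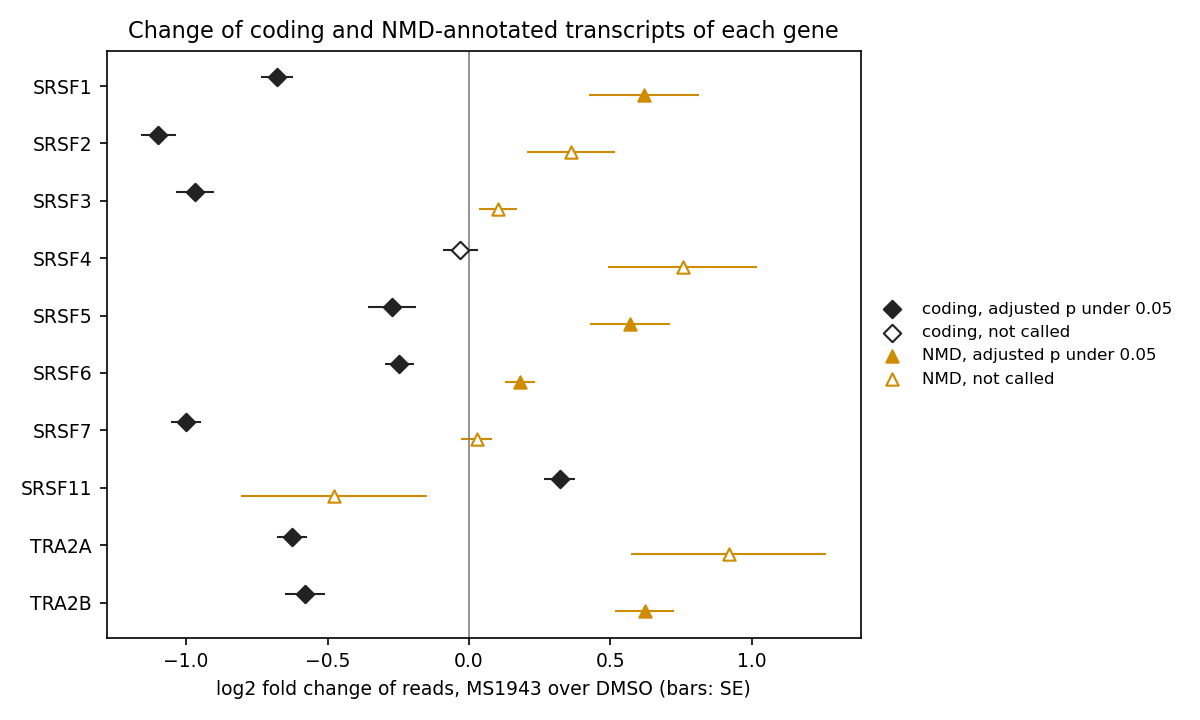
Log2 fold change of estimated reads, MS1943 over DMSO, for coding (diamonds) and NMD-annotated (triangles) transcripts of each gene, with SE bars from edgeR and n = 2 per group; filled symbols passed at an adjusted p under 0.05. Coding values run from -1.10 in SRSF2 to 0.32 in SRSF11, and the NMD value lies to the right of the coding value in every gene except SRSF11.

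Whether the balance of classes within a gene differed was tested directly with edgeR's differential usage test, which sets each class against the rest of its gene. NMD usage rose in SRSF2, SRSF3, SRSF7 and TRA2B, 4 of the 10, and fell in 0. Of the 4029 NMD rows tested over all genes, 5.09% were called higher and 1.02% lower, and the median NMD usage value was 0.73 in the 10 genes and 0.19 over all rows. Relative to the rest of the gene, the log2 value was 1.09 ± 0.14 for SRSF2 (adjusted p = 0.0035), 0.68 ± 0.08 for SRSF3 (adjusted p = 0.00081), 0.65 ± 0.06 for SRSF7 (adjusted p = 0.00019) and 0.95 ± 0.11 for TRA2B (adjusted p = 0.0011). SRSF3 and SRSF7 were called in every alternative run, whereas the SRSF2 call was lost without DMSO replicate 1 (adjusted p = 0.0648) and that of TRA2B without MS1943 replicate 2 (adjusted p = 0.0905). Limma's version of the test also called SRSF6 (0.43, adjusted p = 0.0179) and TRA2A (1.28, adjusted p = 0.0121).

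The other classes gave few calls. Coding usage fell in SRSF3 (-0.39 ± 0.07, adjusted p = 0.0145) and SRSF7 (-0.38 ± 0.05, adjusted p = 0.0026), beside 0.338% of all coding rows called lower and 0.101% higher, and these calls were lost without MS1943 replicate 1 (adjusted p = 0.171 and 0.0774), the SRSF3 call also without MS1943 replicate 2 (0.0841). Retained-intron usage rose in SRSF3 (0.44 ± 0.08, adjusted p = 0.0175), beside 1.53% of all retained-intron rows called higher and 0.703% lower; no member was called lower. Without DMSO replicate 1, MS1943 replicate 1 or MS1943 replicate 2 that adjusted p was 0.0584, 0.0942 or 0.127. The SRSF3 rise is relative to the rest of a falling gene. Its retained-intron reads were not called (-0.14 ± 0.06), and their TPM was lower with MS1943 (40.7 and 35.3) than with DMSO (64.5 and 67.6). The retained-intron share of SRSF3 TPM overlapped between the groups, at 12.7% and 14.0% with DMSO and 13.05% and 11.6% with MS1943. In TRA2A the class of other transcripts rose in reads (0.87 ± 0.12, adjusted p = 0.0022) and in usage (1.22 ± 0.15, adjusted p = 0.00051). Of such rows over all genes, 13.0% were called higher and 9.02% lower in reads, and 1.94% higher and 1.03% lower in usage; of the 3 members tested in this class, the other two were not called.

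TPM shares were then compared library by library. The NMD share was higher in both MS1943 libraries than in both DMSO libraries in 9 of the 10 genes, beside 33.8% of the 4881 genes with such a share. SRSF11 was the exception, with a lower share, as in 13.1% of those genes. The coding share was lower in both MS1943 libraries in 8 of the 10, higher in SRSF11 and overlapping in SRSF5. Of the 12254 genes with a coding share and a mean of at least 1 TPM, 26.5% were lower and 12.8% higher. The retained-intron share was higher in both MS1943 libraries in 4 of 8 genes and lower in 0, beside 27.3% and 16.4% of the 6866 genes with such a share. With 2 libraries a group, an exact permutation test of 1 share cannot give a two-sided p below 0.333, so shares carry no test of their own.

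**Figure D3:**
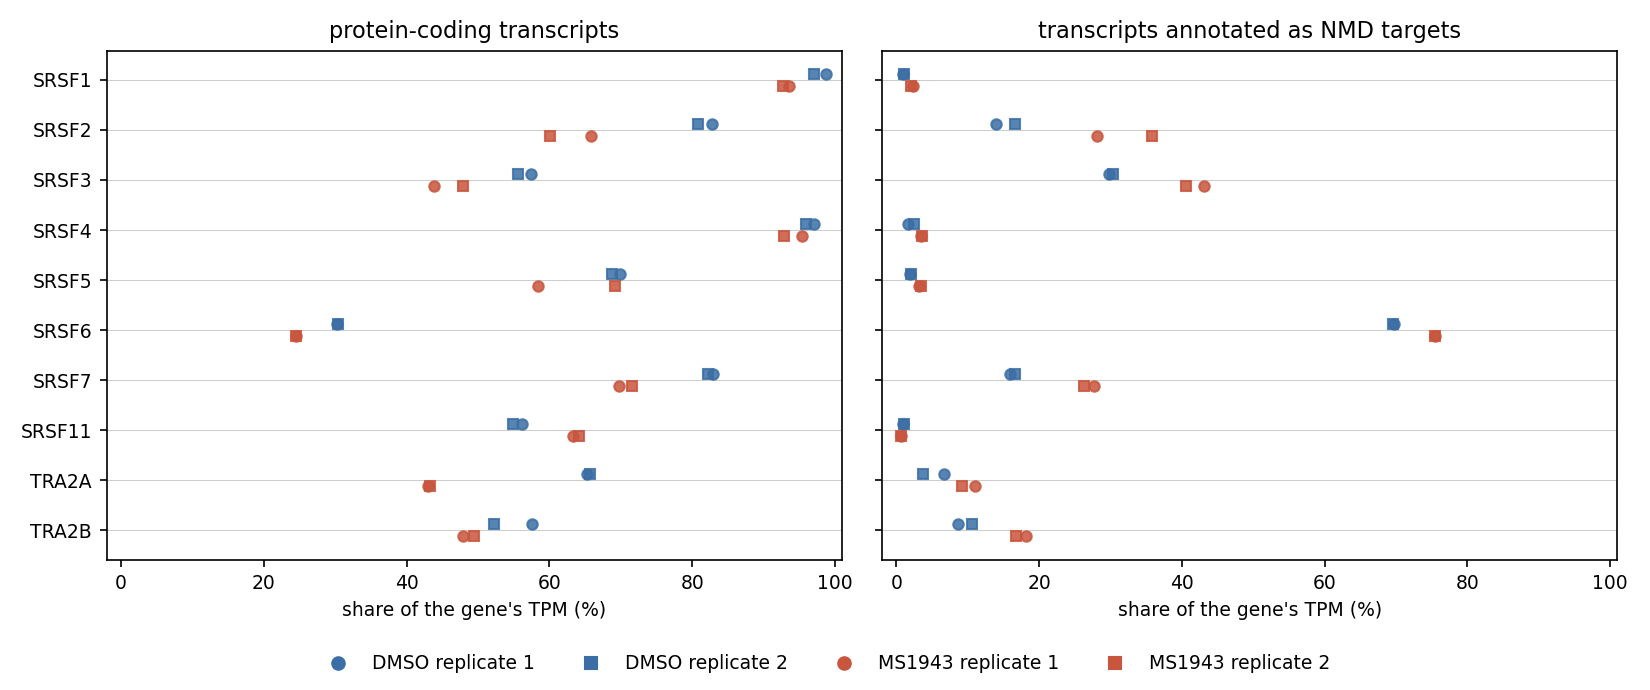
Share of each gene's TPM held by coding transcripts (left) and NMD-annotated transcripts (right), in percent, with 1 point per library. The NMD share of SRSF2 is 13.9% and 16.6% with DMSO and 28.1% and 35.8% with MS1943, and that of SRSF6 lies above 69% in all 4 libraries.

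SRSF2 had the largest difference in NMD share. Its NMD transcripts held 13.9% and 16.6% of the gene's TPM with DMSO and 28.1% and 35.8% with MS1943, so the 2 MS1943 libraries differed from each other by more than the DMSO libraries did. The coding transcript SRSF2-202 had 169.0 and 164.1 TPM with DMSO and 42.0 and 49.9 TPM with MS1943 (log2 fold change -1.73 ± 0.10, edgeR adjusted p = 0.0044). SRSF2-201, the coding transcript with the highest mean over the 4 libraries, fell less, from 134.4 and 159.0 TPM to 84.5 and 65.5 TPM (-0.82 ± 0.17, adjusted p = 0.0479). The third named coding transcript, SRSF2-203, had 21.39 and 22.03 TPM with DMSO and 21.8 and 25.2 TPM with MS1943 and was not called. The main NMD transcript, SRSF2-208, has the full coding sequence with the last junction 105 bases beyond the stop. It had 50.7 and 63.5 TPM with DMSO and 55.8 and 71.7 TPM with MS1943, and the groups overlapped. SRSF2 shares 1106 exonic bases with MFSD11 on the other strand (21.8 to 23.8 TPM in the 4 libraries), and the library kit does not record strand, so reads there cannot be assigned with certainty.

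SRSF3 has 2 NMD transcripts with different values. SRSF3-203, which holds the 456-base poison exon printed above, had 110.2 and 102 TPM with DMSO and 120.6 and 109.9 TPM with MS1943 (log2 fold change 0.25 ± 0.09, edgeR adjusted p = 0.145, not called). SRSF3-204 holds another cassette (98 bases, chr6:36598429-36598526) and fell, from 41.0 and 45.1 TPM to 13.8 and 13.8 TPM (log2 fold change -1.50 ± 0.13, edgeR adjusted p = 0.0088); the rule does not name it, and it was picked once its values were known. The coding transcripts SRSF3-208 and SRSF3-202 fell, with log2 fold changes of -0.80 ± 0.08 and -1.06 ± 0.08 (adjusted p = 0.0108 and 0.0062).

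SRSF7 held 15.9% and 16.6% of its TPM in NMD transcripts with DMSO and 27.7% and 26.4% with MS1943. Its coding transcripts SRSF7-202 (144.6 and 147.8 TPM with DMSO, 76.3 and 77.6 with MS1943) and SRSF7-210 (39.7 and 33.99, then 13.3 and 14.7) both fell, by 0.79 ± 0.05 and 1.26 ± 0.15 (edgeR adjusted p = 0.0058 and 0.0146). Most of the NMD level was in SRSF7-208, at 32.4 and 33.5 TPM with DMSO and 28.2 and 25.9 TPM with MS1943 (-0.15 ± 0.07, not called). Its annotation holds neither the 449-base poison exon as such nor an intron that skips it. SRSF7-208 therefore enters neither side of the inclusion ratio given below for that exon. SRSF7-205, 1 of the 2 transcripts with that exon, was scarce but rose from 0.45 and 0.21 TPM to 5.06 and 3.71 TPM (log2 fold change 3.85 ± 0.46, edgeR adjusted p = 0.0149; also picked once its values were known). SRSF7-204, which holds the same exon, had 5.596 and 5.397 TPM with DMSO and 4.29 and 5.09 TPM with MS1943 and was not called.

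SRSF6 has 2 annotated transcripts, 1 coding (SRSF6-201) and 1 NMD target (SRSF6-202), and the NMD transcript had the higher TPM in all 4 libraries. It held 69.7% and 69.5% of TPM with DMSO and 75.5% and 75.5% with MS1943. SRSF6-202 had 76.0 and 73.6 TPM with DMSO and 77.3 and 77.3 TPM with MS1943, while SRSF6-201 went from 33.03 and 32.25 TPM to 25.1 and 25.2 TPM. The members of each group lay close together, but neither transcript passed the test of single transcripts (edgeR adjusted p = 0.133 and 0.0649). SRSF6-201 is 4325 bases long and SRSF6-202 is 1680, so counted in reads the NMD share was smaller, at 44.2% and 44.2% with DMSO and 51.6% and 51.5% with MS1943.

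In TRA2A the make-up of the transcripts differed between the groups. Coding transcripts held 65.3% and 65.7% of its TPM with DMSO and 43.0% and 43.3% with MS1943. The largest loss of share was in the coding transcript TRA2A-201, from a mean of 60.8% with DMSO to 35.8% with MS1943. The largest gain was in TRA2A-208, from a mean of 7.93% to 26.1%. TRA2A-208 carries the 312-base exon printed above but is annotated as a processed transcript and so counted as other. TRA2A-208 rose from 4.63 and 4.30 TPM to 11.9 and 13.9 TPM (log2 fold change 1.67 ± 0.18, edgeR adjusted p = 0.0128). The coding transcript TRA2A-201 fell from 33.8 and 34.6 TPM to 17.3 and 18.1 TPM (log2 fold change -0.82 ± 0.07, edgeR adjusted p = 0.0078). The NMD-annotated TRA2A-203, whose 79-base exon is the first part of the same exon, had 3.73 and 2.15 TPM with DMSO and 5.43 and 4.58 TPM with MS1943 and was not called.

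TRA2B has 1 NMD transcript, TRA2B-206, which holds the 276-base poison exon. It rose from 20.9 and 26.8 TPM to 33.9 and 32.9 TPM (log2 fold change 0.62 ± 0.13, edgeR adjusted p = 0.0475), while the coding transcripts TRA2B-203 and TRA2B-205 fell by 0.74 ± 0.10 and 0.56 ± 0.09 (adjusted p = 0.0190 and 0.0305). The NMD share was 8.65% and 10.7% with DMSO and 18.2% and 16.8% with MS1943. TRA2B-202, a 288-base transcript annotated as coding that ends inside the poison exon, was at 0 and 1.61 TPM with DMSO and at 14.3 and 16.6 TPM with MS1943, and did not pass (adjusted p = 0.0851; picked once its values were known). The largest retained-intron transcript, TRA2B-213, had 77.0 and 89.2 TPM with DMSO and 57.8 and 60.1 TPM with MS1943. As a class, retained-intron reads of TRA2B fell by 0.30 ± 0.07 (edgeR adjusted p = 0.0205). TRA2B was 1 of 8 members with such transcripts, beside 6.33% of all retained-intron class sums tested that were called lower. That call was lost without DMSO replicate 2, MS1943 replicate 1 or MS1943 replicate 2.

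In SRSF1, SRSF4 and SRSF5 the NMD transcripts were scarce. In SRSF1 the NMD share was 0.877% and 1.05% with DMSO and 2.40% and 2.14% with MS1943, and its 2 main coding transcripts, SRSF1-201 and SRSF1-205, both fell (-0.70 ± 0.06 and -0.71 ± 0.05, adjusted p = 0.0092 and 0.0067). Its retained-intron transcript SRSF1-202 was listed at 0 in 1 DMSO library and at 5.06, 6.61 and 8.76 TPM in the others, and did not pass. In SRSF4 the NMD share was 1.66% and 2.44% with DMSO and 3.44% and 3.58% with MS1943. In SRSF5 it was 1.92% and 2.11% with DMSO and 3.22% and 3.41% with MS1943, and the retained-intron share was 10.7% and 11.1% with DMSO and 14.9% and 17.1% with MS1943. SRSF5 retained-intron reads rose by 0.23 ± 0.06 (edgeR adjusted p = 0.0339; 14.8% of all such rows were called higher), a call that 7 alternatives ended, among them leaving out any 1 of the 4 libraries (adjusted p = 0.0714 to 0.152).

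SRSF11 had the opposite direction to most members in coding reads and in both shares. Its coding share was 56.2% and 54.9% with DMSO and 63.4% and 64.2% with MS1943. The gain was in coding transcripts such as SRSF11-203, which rose from 33.8 and 34.3 TPM to 41.2 and 43.3 TPM (log2 fold change 0.44 ± 0.06, edgeR adjusted p = 0.02005). SRSF11-209, a processed transcript, had 30.1 and 32.0 TPM with DMSO and 15.6 and 19.3 TPM with MS1943 without passing (adjusted p = 0.0663). NMD transcripts were under 2.2 TPM in all 4 libraries.

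Over the 41 transcripts that the naming rule selects, 3 were called higher and 11 lower in the test of single transcripts, beside 7.44% and 5.46% of all 74941 transcripts tested. The rule favours abundant transcripts, whereas all those tested include scarce ones, so these shares are not matched for abundance. All 11 that fell are annotated as coding, and the rule selects 19 coding and 10 NMD-annotated transcripts. The 3 that rose are SRSF11-203, TRA2A-208 and TRA2B-206. Outside the rule, the NMD transcript SRSF3-204 and the coding transcript SRSF7-201 were called lower. The NMD transcript SRSF7-205, the coding transcript TRA2A-211 and the processed transcript SRSF11-216 were called higher there.

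Inclusion of a poison cassette was computed as the TPM of transcripts that hold the exon over the TPM of those that hold or skip it. For the most abundant cassette of each gene, inclusion was higher in both MS1943 libraries than in both DMSO libraries in 6 of the 7 genes, and overlapped in SRSF11. The SRSF11 values were 5.72% and 6.91% with DMSO and 6.27% and 3.7% with MS1943. Cassettes were searched for in the 10 genes alone, and these values carry no test. The TRA2A exon printed above had 10.3% and 9.38% inclusion with DMSO and 34.02% and 38.5% with MS1943, the largest difference in TPM (26.4 percentage points). Counted in reads the TRA2A difference was 15.1 points and that of SRSF3 was 16.2 points, so the order of these genes depends on the unit. The SRSF3 exon had 27.5% and 27.5% inclusion with DMSO and 46.9% and 43.0% with MS1943.

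The SRSF7 exon was included at 2.86% and 2.72% with DMSO and at 8.84% and 8.27% with MS1943, a difference of 5.76 points in TPM and 11.9 points in reads. The SRSF2 cassette stood at 5.41% and 5.99% with DMSO and at 13.7% and 12.7% with MS1943. That ratio does not set NMD against coding transcripts. SRSF2-208, the main NMD transcript, counts as skipping the cassette, and the retained-intron transcript SRSF2-206 counts as holding it. Transcripts with the cassette averaged 13.6 TPM with DMSO and 16.7 TPM with MS1943, and those skipping it 224.2 and 110.1 TPM. The SRSF6 exon had 69.7% and 69.5% in TPM with DMSO and 75.5% and 75.5% with MS1943. Counted in reads it had 44.2% and 44.2% with DMSO and 51.6% and 51.5% with MS1943. The annotated SRSF6 transcripts differ in length by more than this exon, so the ratio does not isolate its inclusion. The SRSF4 exon was rare, at 1.38% and 1.45% with DMSO and 2.12% and 2.74% with MS1943. SRSF4 shares 169 exonic bases with RF02271 on the same strand, so reads on those bases cannot be assigned with certainty. RF02271 was listed at 13.6 and 21.4 TPM with DMSO and 24.9 and 39.7 TPM with MS1943. Under the wider rule the TRA2B exon was included at 10.2% and 12.6% with DMSO and 22.3% and 21.3% with MS1943. With TRA2B-202 counted as holding it, the values were 10.2% and 13.3% with DMSO and 28.9% and 28.8% with MS1943. The same count for SRSF3, with SRSF3-204, which ends inside its 456-base exon, gave 34.2% and 35.4% with DMSO and 49.6% and 45.9% with MS1943, a smaller gap than without it.

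The ratio reflects both the transcripts that hold the exon and those that skip it. In SRSF3, transcripts with the exon averaged 106.1 ± 5.80 TPM (SD, n = 2) with DMSO and 115.2 TPM with MS1943, while those that skip it averaged 280.0 ± 15.8 and 141.2 TPM. In TRA2A, transcripts with the exon averaged 4.46 ± 0.23 TPM with DMSO and 12.9 TPM with MS1943, and those without it 40.9 ± 0.95 and 22.7 TPM. A second SRSF3 cassette, the 98-base exon of SRSF3-204, had lower inclusion with MS1943: 9.25% and 10.8% with DMSO and 5.08% and 5.12% with MS1943.

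**Figure D4:**
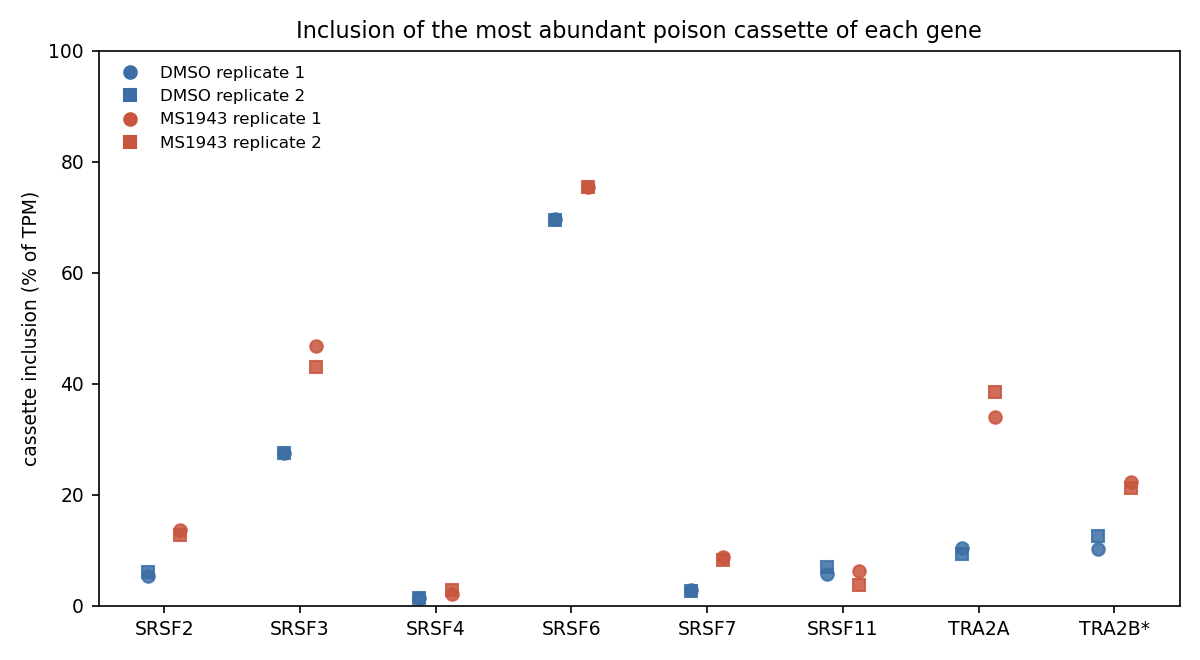
Inclusion of the most abundant poison cassette of each gene, as a percentage of the TPM of transcripts that hold or skip it; each point is 1 library, and the asterisk marks TRA2B, admitted by the wider rule. MS1943 libraries lie above DMSO libraries in each gene except SRSF11, with the widest gap on this TPM scale in TRA2A.

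Genes that act with the SR proteins were described from 6 lists. Their counts stand beside 30.0% of all tested genes called higher and 29.4% called lower. For NMD usage the shares over all rows were 5.09% higher and 1.02% lower. A list with calls near these shares does not stand apart from all genes. Among the 4 remaining SR genes, SRSF10, a splicing repressor when dephosphorylated, fell (-0.27 ± 0.06, edgeR adjusted p = 0.00029) and SRSF8 rose (0.17 ± 0.06, adjusted p = 0.0222). SRSF9 (-0.07 ± 0.06) and SRSF12 (0.26 ± 0.19) did not pass. SRSF10 also rose in NMD usage (1.59 ± 0.18, adjusted p = 0.00028), with an NMD share of 2.18% and 2.66% with DMSO and 6.64% and 6.13% with MS1943.

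The kinases that phosphorylate the arginine/serine tails, and the importin that carries SR proteins into the nucleus, were mixed: 5 of 10 rose and 3 fell. CLK3 (0.72 ± 0.06) and CLK1 (0.68 ± 0.06), dual-specificity kinases of nuclear SR proteins, rose, as did the importin TNPO3 (0.32 ± 0.06), and the kinase PRPF4B fell (-0.46 ± 0.06). NMD usage fell in CLK1 (-1.07 ± 0.17, adjusted p = 0.0050) and CLK3 (-2.32 ± 0.37, adjusted p = 0.0050). The NMD share of CLK1 was 24.4% and 25.5% with DMSO and 12.1% and 14.8% with MS1943.

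The heterogeneous nuclear ribonucleoproteins (hnRNPs) and polypyrimidine tract binding proteins, which often act against SR proteins at exons, were lower almost throughout. Of 24 genes, 23 fell, 0 rose and 1 did not pass, with a median log2 fold change of -0.43. HNRNPA1, the classic antagonist of SRSF1 at splice sites, had 1074 and 1035 TPM with DMSO and 545.3 and 514.3 TPM with MS1943 (log2 fold change -0.85 ± 0.06, edgeR adjusted p = 4.8e-10). HNRNPR (-0.82 ± 0.06), HNRNPC (-0.76 ± 0.06) and HNRNPL (-0.64 ± 0.06) also fell. In NMD usage, 5 of the 13 hnRNP genes with such transcripts rose and 2 fell. The largest rise was in HNRNPDL (2.32 ± 0.13, adjusted p = 3.4e-05), with NMD shares of 3.49% and 4.55% with DMSO and 22.4% and 22.9% with MS1943. The 2 that fell were HNRNPUL1 (-0.47 ± 0.07, adjusted p = 0.0019) and HNRNPC (adjusted p = 0.0322), whose NMD share was 0.0576% and 0.0431% with DMSO and listed at 0 with MS1943. HNRNPDL and HNRNPUL1 were named for their usage values.

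SR-related proteins gave 5 rises and 4 falls among 16 genes. LUC7L3 (-0.40 ± 0.06) and BCLAF1 (-0.38 ± 0.06) fell, while LUC7L (0.44 ± 0.07) and LUC7L2 (0.29 ± 0.05), which act with the U1 particle, rose. Of 19 genes for splice site recognition, 6 rose and 6 fell. SF3B3 (-0.81 ± 0.06), SNRPA (-0.58 ± 0.05) and U2AF2 (-0.36 ± 0.06), parts of the U2 particle, the U1 particle and the polypyrimidine tract reader, fell, and SUGP1 rose (0.48 ± 0.06).

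Of 18 genes of the NMD pathway and the exon junction complex, 5 rose and 6 fell, with a median of -0.06. PNRC2, an adaptor to decapping, had 170.1 and 158.5 TPM with DMSO and 72.9 and 66.5 TPM with MS1943 (log2 fold change -1.16 ± 0.06, edgeR adjusted p = 5.8e-12). NBAS (0.79 ± 0.06) and the UPF1 kinase SMG1 (0.42 ± 0.06) rose. The part of these changes in the NMD shares of the SR genes was not tested.

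**Figure D5:**
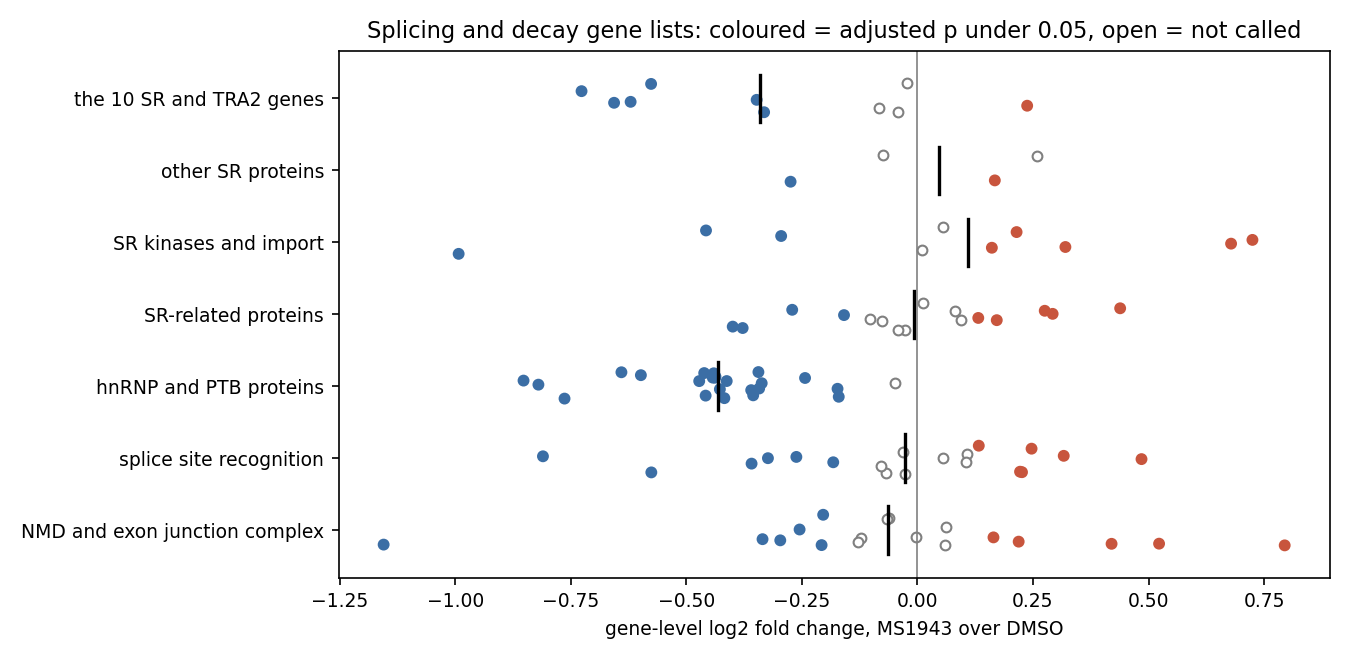
Gene-level log2 fold change, MS1943 over DMSO, for the 10 SR and TRA2 genes and 6 lists of splicing and decay genes; each point is a gene, coloured where edgeR's adjusted p was under 0.05 and open where not, and the black bar is the list median. The hnRNP points lie below 0, with a median of -0.43, and the remaining 5 lists hold both directions.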

How the data were processed

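Per the labels' protocols, RNA of the 4 samples was poly(A)-selected and made into libraries with Illumina's TruSeq kit v2, which does not mark strand. The submitters' processing notes name hg38, R 3.4.3, DESeq2 and Salmon 0.9.1, with no annotation release given in the sources used here. Values deposited as estimated counts are the reads that Salmon assigned to each transcript, per the file headers. TPM in the deposited files is Salmon's length-scaled abundance, per the file headers. The files hold no measure of Salmon's assignment error between transcripts that share sequence, so the spread used is that between libraries.

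Each file lists 197653 transcripts; 193505 matched GENCODE 29 by identifier without version, and the 4148 others, with 0.482% to 0.496% of reads, were left out. Estimated counts were summed per gene and per gene and class, and rounded. The tests were edgeR 4.0.16's quasi-likelihood test with TMM scaling and filterByExpr over 19358 genes, 33713 class sums and 74941 transcripts, and edgeR's diffSpliceDGE over 23548 class sums, each adjusted by Benjamini-Hochberg over the whole table; the threshold was an adjusted p of 0.05. At gene level edgeR's common biological coefficient of variation came to 0.0478. SE is the log2 value divided by the square root of F. Background shares used genes with a mean of at least 1 TPM.

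Alternatives were RLE size factors, total reads, no filter, DESeq2 1.42.0, transcript length offsets, limma 3.58.1's diffSplice, 2 classes only, shares in reads, and leaving out each library. Named transcripts are each member's most abundant coding, NMD and retained-intron transcript and any with at least 10% of TPM in either group; list genes are up to 4 with the smallest adjusted p, and a few genes are not reported here. Members and lists were chosen with earlier results of these data known. Replicates were not copies of each other: chi-square per degree of freedom was 6.33 (DMSO) and 5.86 (MS1943).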

Additional observations from a re-analysis of the deposited data

How the results depend on the processing

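Gene-level counts of members (6 lower, 1 higher) and the counts by TPM share and by cassette stayed within 1.5 times under each alternative run. The sizes were less stable: 23 share differences and 4 cassette differences (SRSF4, SRSF6, SRSF7 and TRA2A, in reads) moved by more than the spread between replicates, none of them changing sign. The number of members with higher NMD reads (4) was 1 with total reads, 2 by DESeq2 and 1 to 3 with a library left out. Without the filter it was again 4, but SRSF1 and SRSF6 were lost and SRSF2 and TRA2A gained. Higher retained-intron reads (1) went to 0 with total reads, by DESeq2 and in some leave-one-out fits (0 to 1), and lower ones (1) to 2 with total reads and 0 to 1 with a library left out. Usage calls over all genes (397 higher, 162 lower) numbered 1092 and 1057 by limma, 131 to 365 higher and 67 to 113 lower with a library left out. By limma the members had 7 lower and 1 higher in coding usage and 2 higher in retained-intron usage; with a library left out, 0 to 2 lower in coding and 0 to 2 higher in retained-intron usage. Signs changed only for values near 0. At gene level SRSF4 ranged from -0.1063 to 0.0368 with a library left out, and SRSF6 was 0.0367 with length offsets. In class reads, SRSF4 coding ranged from -0.1129 to 0.0242 with a library left out, and SRSF3 NMD was -0.0094 with total reads. SRSF7 NMD was -0.0849 with total reads, -0.0066 without the filter, -0.0254 by DESeq2 and -0.0293 to 0.0582 with a library left out. The cause of these changes was not tested. Labels number no replicates, so no paired analysis was possible because the groups share no replicate labels. Depth limits transcripts of a few TPM, such as the NMD transcripts of SRSF1, SRSF4, SRSF5 and SRSF11.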
